A study of Rattus norvegicus with 24 samples.

Results

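The glucocorticoid pathway was followed through 8 genes in the CA1 field of the rat hippocampus: the receptors Nr3c1 and Nr3c2, the hormone-activating enzyme Hsd11b1, and the target genes Sgk1, Klf15, Klf9, Fkbp5 and Tsc22d3. A probe set (a group of probes for 1 transcript) was taken as a member if the platform annotation gave it 1 of these symbols and no other, which held for 14 of the 31099 probe sets on the array. All 8 genes were measured. A probe set passed the filter on low values if its log2 signal was over 4 in at least 6 arrays, and 10 of the 14 did. Each gene was represented by the passing probe set of highest mean, as were the 9076 genes tested in all.

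Microdissected CA1 tissue came from male Long-Evans rats, 1 array of total RNA per rat, killed after testing in the Morris water maze, a test of place learning in which the rat must find a submerged platform. The groups were aged impaired (24 to 26 months, 8 arrays), aged unimpaired (24 to 26 months, 6 arrays) and young (6 months, 9 arrays). No rat was treated and all were outbred animals with no engineered allele. Aged rats were called impaired where their learning index was worse than the range of the young rats and unimpaired where it lay within that range, so the groups divide a continuous score. The column of young replicate 9 stood between those of aged unimpaired replicates 5 and 7 in the deposited table. No array of the series was labelled aged unimpaired replicate 6, and the label of young replicate 9 may be wrong. It was kept as labelled, and the main results are also given without it. The median correlation of an array with the others was between 0.990 and 0.994, lowest in aged impaired replicates 7 and 8 and young replicate 5. The blank column of 1 more array, labelled aged unimpaired replicate 8, was not used.

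Glucocorticoids, corticosterone in the rat, enter cells and bind intracellular receptors that act as transcription factors. The mineralocorticoid receptor Nr3c2 binds corticosterone with high affinity and is thought to be largely occupied at resting hormone levels, whereas the glucocorticoid receptor Nr3c1 binds it less tightly and fills as the hormone rises with stress or the daily peak. The hippocampus is known for expressing both receptors and for its part in the feedback that restrains the stress response. Hsd11b1 regenerates active hormone from its inert keto form inside the cell. Among the targets, Sgk1 is a serine/threonine kinase that regulates ion channels and transporters, Klf15 and Klf9 are zinc finger transcription factors, Fkbp5 is a co-chaperone that lowers the hormone affinity of the receptor, and Tsc22d3 (also called GILZ) is a leucine zipper protein that mediates anti-inflammatory effects.

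The promoters of Klf15 and Sgk1 are shown because these members differed with age. Each window holds 250 bases before and 50 after a RefSeq start site on the rat build GRCr8, 5′ to 3′ on the strand of the gene. Sgk1 has 3 annotated start sites, all on the minus strand of chromosome 1 (chr1:24807182-24807481, chr1:24805521-24805820 and chr1:24804782-24805081), and Klf15 has 1 on the plus strand of chromosome 4 (chr4:124522765-124523064). Capitals mark matches on either strand to the TATA box TATAAA, the GC box GGGCGG or the E-box CACGTG.
Klf15: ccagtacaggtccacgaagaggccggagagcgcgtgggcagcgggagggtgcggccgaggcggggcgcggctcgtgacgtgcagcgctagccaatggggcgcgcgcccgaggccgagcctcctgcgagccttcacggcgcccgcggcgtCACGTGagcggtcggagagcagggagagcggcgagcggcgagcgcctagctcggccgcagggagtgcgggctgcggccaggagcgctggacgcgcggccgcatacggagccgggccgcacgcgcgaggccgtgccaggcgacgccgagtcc
Sgk1 site 1: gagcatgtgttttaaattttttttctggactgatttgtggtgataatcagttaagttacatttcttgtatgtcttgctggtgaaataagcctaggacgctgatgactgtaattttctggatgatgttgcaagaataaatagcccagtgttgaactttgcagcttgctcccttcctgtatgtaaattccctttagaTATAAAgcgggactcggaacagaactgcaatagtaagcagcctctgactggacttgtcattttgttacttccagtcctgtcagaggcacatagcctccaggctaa
Sgk1 site 2: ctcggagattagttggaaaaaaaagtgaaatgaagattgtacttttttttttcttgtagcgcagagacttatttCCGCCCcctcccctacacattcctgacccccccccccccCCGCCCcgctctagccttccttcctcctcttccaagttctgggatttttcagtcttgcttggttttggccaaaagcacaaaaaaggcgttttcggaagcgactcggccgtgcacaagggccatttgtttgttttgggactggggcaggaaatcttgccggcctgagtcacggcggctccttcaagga
Sgk1 site 3: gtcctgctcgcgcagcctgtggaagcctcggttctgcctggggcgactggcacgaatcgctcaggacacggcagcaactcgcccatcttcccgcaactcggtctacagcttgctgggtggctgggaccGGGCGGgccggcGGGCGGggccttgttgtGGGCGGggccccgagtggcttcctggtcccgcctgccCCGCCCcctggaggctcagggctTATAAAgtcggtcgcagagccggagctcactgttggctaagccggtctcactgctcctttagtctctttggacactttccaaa

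The table of promoters held 11 windows for 6 of the members, with Nr3c2 and Hsd11b1 not matched. The receptor hexamer AGAACA was searched on both strands and lay in 0 of the 11 windows, against 20.7% of all 33469 windows of the same length. The full palindrome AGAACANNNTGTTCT, which contains that hexamer, lay in 0 of the 11, against 0.0149% of all windows. The GC box GGGCGG lay in 7 of the 11, against 33.1% of all, and the TATA box TATAAA in 3 of the 11, against 14.2%. The TATA boxes of Sgk1 began 55 bases before start site 1 and 33 bases before start site 3. The E-box CACGTG, a site shape read by clock and other helix-loop-helix factors, lay in 6.42% of all windows and among the members in the Klf15 window alone, where it began 101 bases before the start. A match describes letters in a window and not a bound site.

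The aged groups were first set against young to ask which parts of the pathway changed with age. Sgk1 and Klf15 rose in aged CA1, while the receptors, Hsd11b1 and the other 3 targets did not pass the test. Sgk1 was 1.75-fold higher in aged than in young rats and Klf15 1.34-fold higher. Values are log2 signals made by the authors with GCRMA, so a difference of 1 is a doubling. Differences were tested with limma on the 3 group means and Benjamini-Hochberg adjustment over the 9076 genes, with calls at an adjusted p under 0.05. For comparisons of all aged rats with young, each aged array carried equal weight in the aged mean. In this tissue RNA, fewer cells of a type and less RNA per cell cannot be told apart.

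The log2 signals of Sgk1 (probe set 1367802_at) in the aged impaired arrays were 11.22, 11.98, 11.40, 10.55, 11.11, 11.54, 10.37 and 11.11. In the aged unimpaired arrays they were 10.97, 11.01, 11.55, 11.42, 10.79 and 11.18, against 10.05, 10.20, 9.91, 10.19, 11.14, 10.19, 10.34, 10.09 and 11.02 in young arrays. The young arrays fell apart: replicates 5 and 9 lay within the aged range, and the other 7 young arrays lay below every aged array. All 14 aged arrays exceeded the young median, and 7 of them exceeded the highest young array. The log2 difference of aged impaired minus young was 0.81 ± 0.20 (SE; limma, Benjamini-Hochberg adjusted p = 0.0203). That of aged unimpaired minus young was of the same size, 0.81 ± 0.21, and did not pass (limma, Benjamini-Hochberg adjusted p = 0.0794). Over all aged rats it was 0.81 ± 0.17, with a 95% interval from 0.45 to 1.17 (limma, Benjamini-Hochberg adjusted p = 0.00848), the 118th smallest p of the 9076 genes.

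Klf15 (probe set 1368249_at) had log2 signals of 8.23, 8.39, 8.28, 7.94, 8.18, 8.41, 8.19 and 8.02 in the aged impaired arrays. The aged unimpaired arrays held 8.08, 8.16, 8.24, 8.35, 7.79 and 8.02, against 7.79, 7.63, 7.60, 7.63, 8.01, 7.66, 7.52, 7.84 and 7.98 in young arrays. Of the 14 aged arrays, 12 exceeded the highest young array, and the exceptions were aged impaired replicate 4 and aged unimpaired replicate 5. Young replicates 5 and 9 were again the highest of their group. The log2 difference of aged impaired minus young was 0.46 ± 0.08 (limma, Benjamini-Hochberg adjusted p = 0.00173) and that of aged unimpaired minus young was 0.37 ± 0.09 (limma, Benjamini-Hochberg adjusted p = 0.0522). Over all aged rats it was 0.42 ± 0.07, with a 95% interval from 0.27 to 0.57 (limma, Benjamini-Hochberg adjusted p = 0.00106), the 50th smallest p of the 9076 genes. A dimmer Klf15 probe set, 1381396_s_at, gave a log2 difference of 0.46 ± 0.12 for aged impaired minus young (limma over all filtered probe sets, Benjamini-Hochberg adjusted p = 0.0360). For all aged rats minus young it gave 0.37 ± 0.11 and did not pass (adjusted p = 0.0665 in the same limma fit). A further Klf15 probe set, 1381395_at, had a log2 signal of at most 2.77 on any array and failed the filter.

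**Figure D1:**
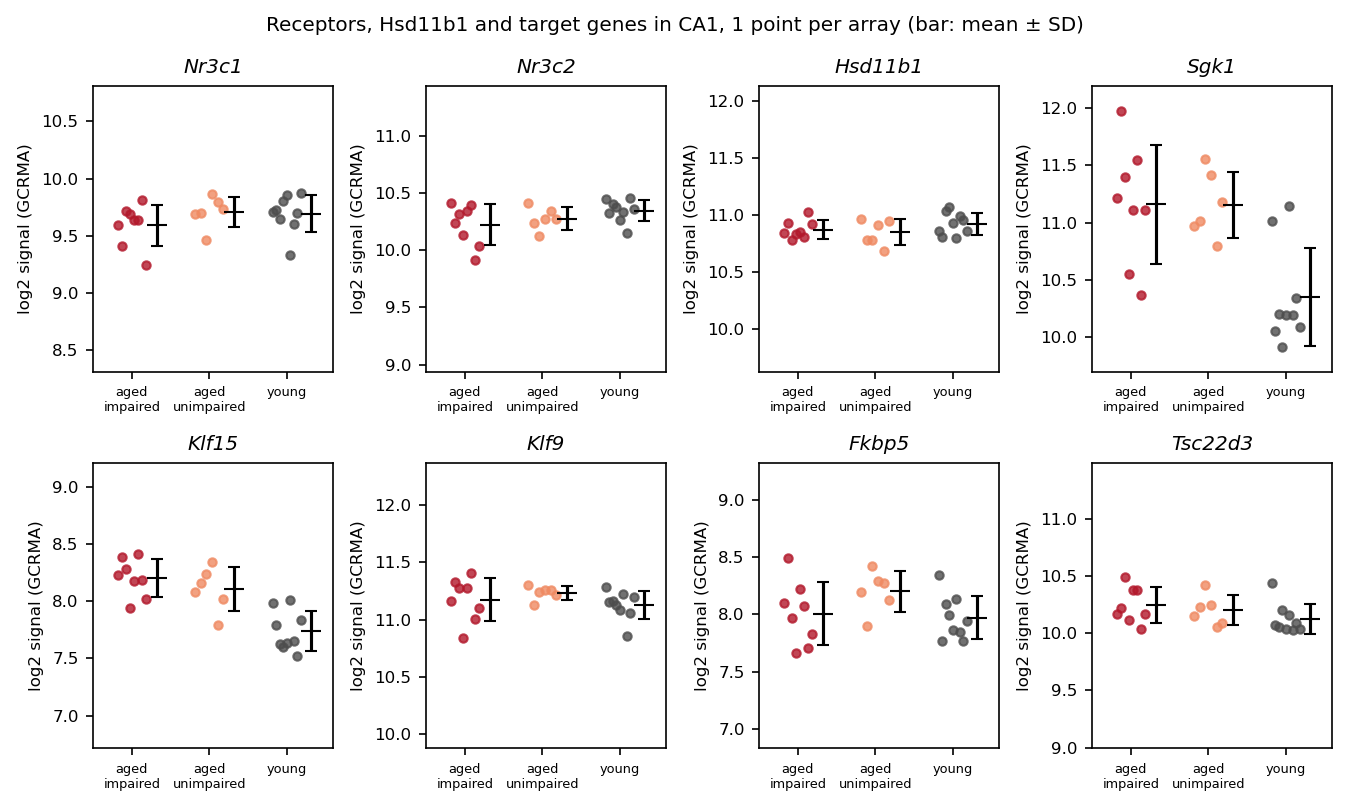
Log2 signal (GCRMA) of the 8 genes, 1 point per array, for aged impaired (8 arrays), aged unimpaired (6) and young (9) rats from left to right; bars give the mean ± SD and all panels span an equal range. For Sgk1 all aged points lie above the young ones except young replicates 5 and 9, at 11.14 and 11.02. For Klf15 5 of the 9 young points lie below every aged point, and for the other 6 genes the groups overlap.

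Thus 2 of the 8 members were called in aged impaired minus young, both higher, against 3.8% of all genes called there and 3.09% called higher. In aged unimpaired minus young 0 of the 8 were called, against 0.76% of all genes (69 by limma with Benjamini-Hochberg adjustment, and 893 at an unadjusted p under 0.05). In all aged rats minus young 2 of the 8 were called, both higher, against 3.71% of all genes. These comparisons share the young arrays. Without young replicate 9, the log2 differences were 0.89 for Sgk1 and 0.45 for Klf15 in aged minus young and 0.89 and 0.49 in aged impaired minus young, and all passed. Without it, both Sgk1 (0.89, adjusted p = 0.0476) and Klf15 (0.40, adjusted p = 0.0336) passed in aged unimpaired minus young, and so did both without young replicate 5 (0.91 with adjusted p = 0.0273 and 0.40 with adjusted p = 0.0233, all by limma with Benjamini-Hochberg adjustment). The Sgk1 call in aged impaired minus young was lost without aged impaired replicate 6 (limma, Benjamini-Hochberg adjusted p = 0.0503). Without the 3 arrays of lowest correlation, the log2 differences of aged minus young were 0.98 for Sgk1 and 0.47 for Klf15.

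**Figure D2:**
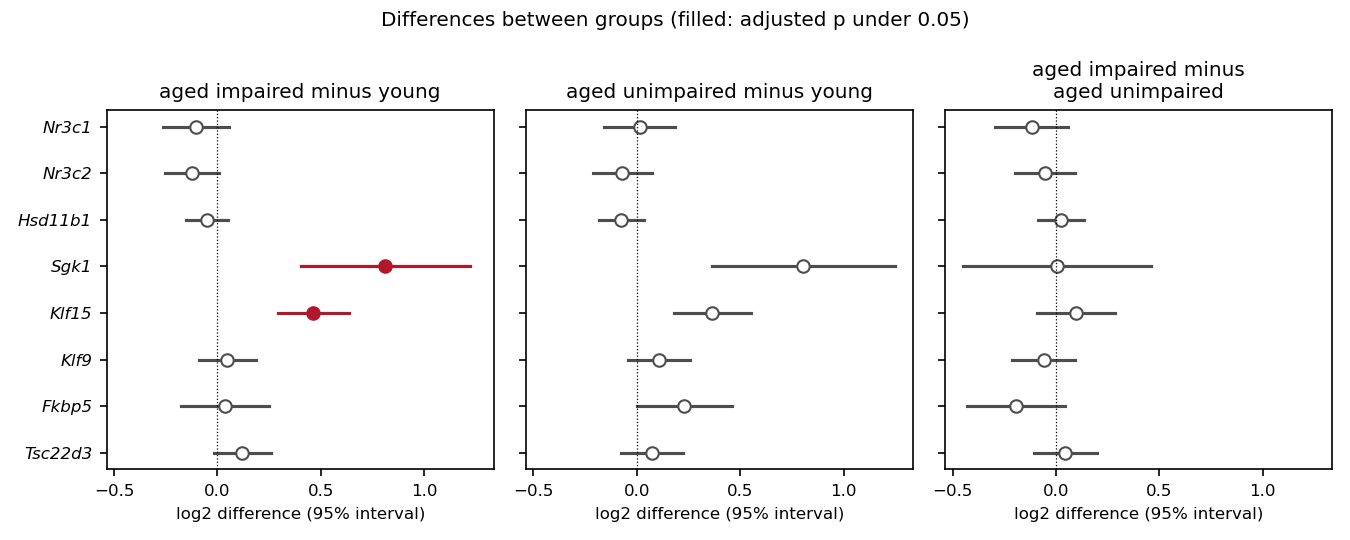
Log2 difference with its 95% interval for each of the 8 genes in aged impaired minus young, aged unimpaired minus young and aged impaired minus aged unimpaired; filled points had an adjusted p under 0.05. The Sgk1 and Klf15 intervals lie above 0 in both comparisons with young, with filled points only for aged impaired rats, and every interval of the comparison between aged groups includes 0.

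The receptors did not pass the test in any comparison. For Nr3c1 (1368221_at), the lowest, median and highest log2 signals were 9.24, 9.63 and 9.81 in aged impaired, 9.47, 9.71 and 9.86 in aged unimpaired and 9.33, 9.71 and 9.88 in young arrays. The 3 groups overlapped over nearly their whole ranges. The log2 difference of aged minus young was -0.05 ± 0.07, with a 95% interval from -0.19 to 0.09. A second Nr3c1 probe set, 1368222_at, averaged 3.57 and passed the floor of 4 in 1 array, so it was not tested among the genes. For Nr3c2 (1368476_at), the lowest, median and highest log2 signals were 9.92, 10.28 and 10.41 in aged impaired, 10.12, 10.27 and 10.41 in aged unimpaired and 10.15, 10.36 and 10.46 in young arrays. Of the 14 aged arrays, 11 lay below the young median and 4 below every young array. The log2 difference of aged minus young, -0.10 ± 0.06, did not pass (limma, Benjamini-Hochberg adjusted p = 0.418).

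Hsd11b1 (1386953_at) varied least among the members over all aged arrays, with an SD of 0.092. Its lowest, median and highest log2 signals were 10.78, 10.85 and 11.02 in aged impaired, 10.69, 10.85 and 10.97 in aged unimpaired and 10.80, 10.93 and 11.07 in young arrays. The log2 difference of aged minus young was -0.06 ± 0.04, with a 95% interval from -0.15 to 0.03 (limma, Benjamini-Hochberg adjusted p = 0.577).

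Klf9, Fkbp5 and Tsc22d3 had positive log2 differences that did not pass. Klf9 (1370209_at) averaged 11.18 ± 0.19 in aged impaired, 11.23 ± 0.06 in aged unimpaired and 11.13 ± 0.12 in young arrays (SD, n = 8, 6 and 9). Fkbp5 (1388901_at) averaged 8.01 ± 0.28, 8.20 ± 0.18 and 7.97 ± 0.19 in the same order of groups. Tsc22d3 (1367771_at) averaged 10.25 ± 0.15, 10.20 ± 0.13 and 10.13 ± 0.13. The groups overlapped for all of them, and the log2 differences of aged minus young were 0.07 ± 0.06 for Klf9, 0.12 ± 0.09 for Fkbp5 and 0.10 ± 0.06 for Tsc22d3. Their 95% intervals ended at 0.19 for Klf9, 0.31 for Fkbp5 and 0.22 for Tsc22d3, all below the lower end of the Sgk1 interval. The Fkbp5 interval overlapped that of Klf15, which began at 0.27. In aged unimpaired minus young Fkbp5 was at 0.23 ± 0.11, with an interval ending at 0.46 (limma, Benjamini-Hochberg adjusted p = 0.508). The Sgk1 interval there began at 0.36. The second Fkbp5 probe set, 1380611_at, gave a log2 difference of 0.09 ± 0.15, and the other Klf9 probe sets, 1390076_at and 1387882_at, averaged 1.65 and 1.28 and failed the filter.

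Setting aged impaired against aged unimpaired rats asked whether the pathway differed with learning at 1 age. By limma with Benjamini-Hochberg adjustment 0 of the 8 members passed, and 0% of the 9076 genes did (629 genes at an unadjusted p under 0.05, with no member among them). The log2 difference was 0.005 ± 0.22 for Sgk1, with a 95% interval from -0.45 to 0.46, and 0.10 ± 0.09 for Klf15, with an interval from -0.09 to 0.29. The Sgk1 interval therefore still includes differences in either direction. Fkbp5 had the smallest unadjusted p of the members, 0.102, with a log2 difference of -0.20 ± 0.11 and an interval from -0.43 to 0.04.

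Rats of 1 group differed in the targets together. Among the 5 targets, an array that was high for its group in 1 gene was on the whole high in the other 4. Each gene was expressed as its deviation from the group mean, and Pearson's r was computed over the 23 arrays for the 28 pairs of members, with 2-sided permutation of arrays within groups and Benjamini-Hochberg adjustment over the 28 pairs. All 10 pairs of targets passed, with r from 0.52 to 0.75 and permutation adjusted p from 0.00378 to 0.0423. Of the 18 pairs that held a receptor or Hsd11b1, 2 passed.

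The Sgk1 and Klf15 deviations had r = 0.72 and rho = 0.67 (adjusted permutation p = 0.00378 and 0.0127), and r = 0.69 without the 2 arrays farthest from the Sgk1 median. Within groups the r was 0.73 in aged impaired, 0.81 in aged unimpaired and 0.74 in young arrays. Sgk1 and Fkbp5 had r = 0.75 and rho = 0.64 (adjusted permutation p = 0.00378 and 0.0127), and r = 0.71 without the 2 farthest arrays. Klf9 and Fkbp5 had r = 0.73 and rho = 0.72 (adjusted permutation p = 0.00439 and 0.0127), with 0.79, 0.71 and 0.66 in aged impaired, aged unimpaired and young arrays. The weakest pair of targets was Fkbp5 with Tsc22d3, at r = 0.52 and rho = 0.55 (adjusted permutation p = 0.0423 and 0.0369). With Spearman's rho 9 of the 10 target pairs passed. All 10 pairs were positive within aged impaired and within young arrays, and 8 of 10 within aged unimpaired arrays, where Klf9 had r = -0.12 with Klf15 and -0.14 with Tsc22d3.

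**Figure D3:**
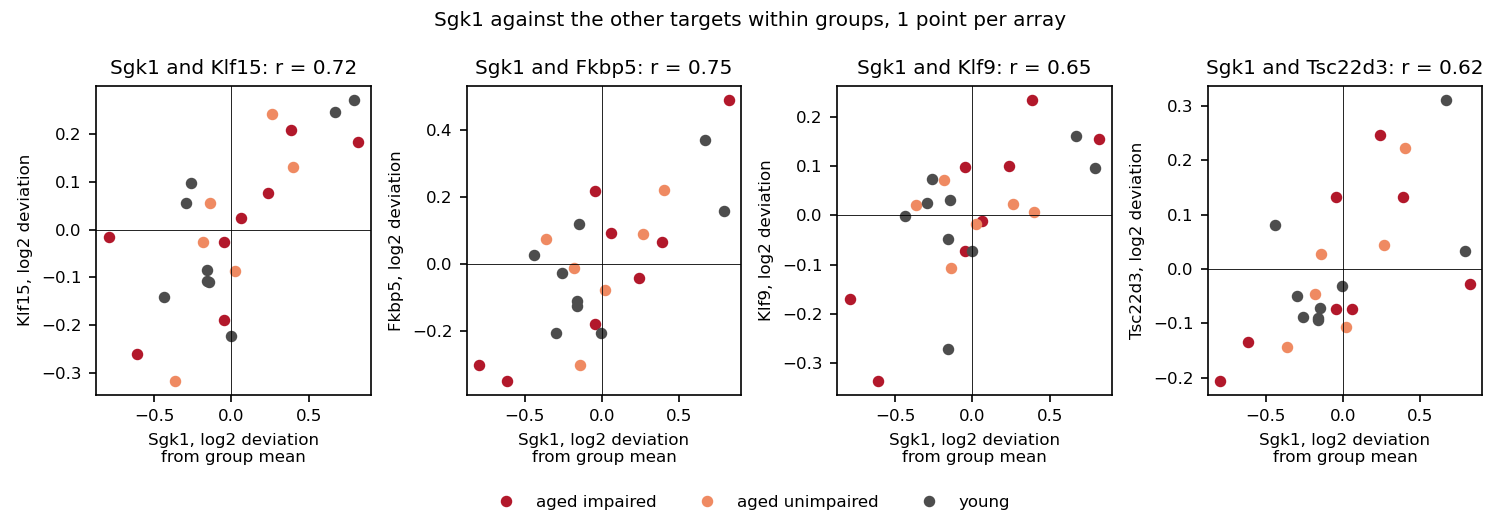
Deviation from the group mean (log2 units) of Klf15, Fkbp5, Klf9 and Tsc22d3 on the vertical axes against that of Sgk1 on the horizontal axis, 1 point per array in aged impaired, aged unimpaired and young rats. Over the 23 arrays r was 0.72, 0.75, 0.65 and 0.62, and the points rise from lower left to upper right, except that the aged unimpaired points show no slope for Klf9 (r = 0.029).

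The shared variation could be read from single rats. In 5 of the 23 arrays all 5 targets lay above their group means, and in 6 arrays none did. Young replicate 9 had the highest Klf9 (11.29), Fkbp5 (8.34) and Tsc22d3 (10.44) of the young arrays, and the second highest Sgk1 and Klf15. Young replicate 5 was also above the group mean in all 5, as were aged impaired replicate 6 and aged unimpaired replicates 3 and 4. Aged impaired replicates 4, 7 and 8 were below it in all 5, with replicate 4 the lowest of its group in Klf15 (7.94), Klf9 (10.84) and Fkbp5 (7.66). The 10 target pairs were all positive without young replicate 9, with r from 0.40 to 0.71 over 22 arrays, and without young replicates 5 and 9, with r from 0.39 to 0.70 over 21 arrays.

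Set among all genes, the 4 other targets stood near the top of the list for Sgk1. Of 9075 genes, Fkbp5 had the 6th highest r with Sgk1, Klf15 the 10th, Klf9 the 25th and Tsc22d3 the 43rd, and 1.82% of genes had an r of at least 0.5. For Klf15, Sgk1 ranked 4th, Klf9 26th, Tsc22d3 43rd and Fkbp5 76th, and 1.22% of genes had an r of at least 0.5. For each of Klf9, Fkbp5 and Tsc22d3, all 4 correlations with the other targets also exceeded 0.5, and 5.83%, 5.31% and 3.06% of genes had an r of at least 0.5 with these targets. The other targets ranked 32nd to 274th for Klf9, 12th to 392nd for Fkbp5 and 51st to 211th for Tsc22d3. The receptor Nr3c2 ranked 91st for Klf9. These ranks are descriptions across genes that share the same arrays.

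**Figure D4:**
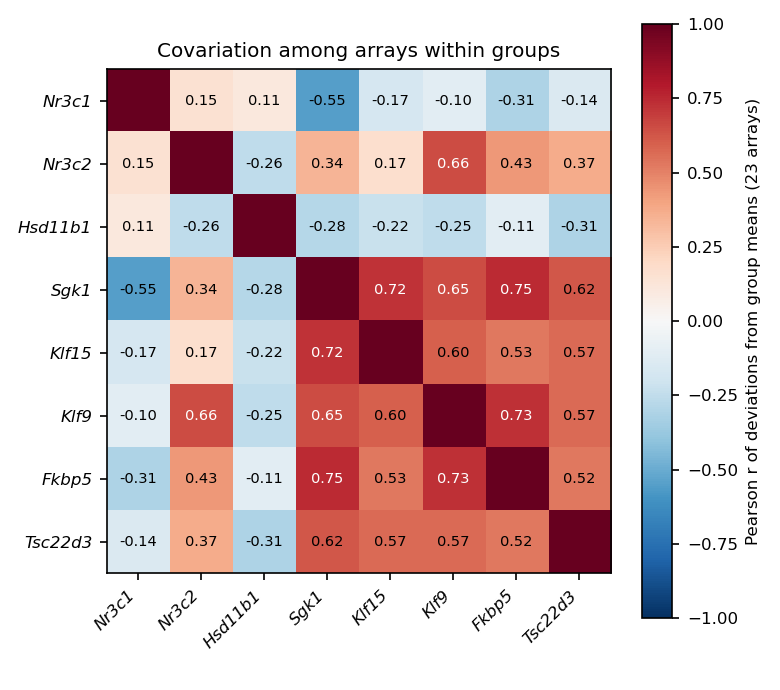
Pearson r of deviations from group means over 23 arrays for every pair of the 8 genes. The block of the 5 targets at lower right holds values from 0.52 to 0.75, while Nr3c1 and Hsd11b1 have r at or below 0 with all 5 targets.

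Nr3c1 stood apart from this pattern. Nr3c2 had positive r with all 5 targets, from 0.17 with Klf15 to 0.66 with Klf9, and passed with Klf9 alone. Nr3c1 had r = -0.55 and rho = -0.48 with Sgk1, the Pearson value passing and the Spearman value not (adjusted permutation p = 0.0310 and 0.0607), and r = -0.55 without the 2 farthest arrays. Nr3c1 moved with the mean of the 8 measured endothelial markers (r = 0.70, rho = 0.71, adjusted permutation p = 0.00433 and 0.00919 over 104 such relations, r = 0.71 without the 2 farthest arrays). Sgk1 had r = -0.58 and rho = -0.60 with that mean (adjusted permutation p = 0.0689 and 0.0389), and r = -0.45 without the 2 farthest arrays. Nr3c1 moved with some other non-neuronal markers as well: with the astrocyte mean at r = 0.64 and rho = 0.71 (adjusted permutation p = 0.0308 and 0.00919), with the oligodendrocyte mean at r = 0.62 and rho = 0.54 (0.0308 and 0.0843, by the same adjusted permutation test) and with the pericyte mean at r = 0.58 and rho = 0.59 (adjusted permutation p = 0.0621 and 0.0477). Without the 2 farthest arrays these r were 0.56, 0.54 and 0.48. With the microglia mean Nr3c1 had r = 0.10 and rho = 0.30 and did not pass (adjusted permutation p = 0.906 and 0.523). With the meninges and fibroblast mean it had r = 0.40 and rho = 0.31 and did not pass either (adjusted permutation p = 0.335 and 0.509). An r of at least 0.5 with a receptor was common: of 9075 genes, 14.8% had one with Nr3c1 and 12.7% with Nr3c2. With the endothelial mean removed from the deviations, Nr3c1 and Sgk1 had r = -0.25 (adjusted permutation p = 0.366). The target pairs then had r from 0.51 to 0.90, with 9 of 10 passing. Klf15, Klf9, Fkbp5 and Tsc22d3 had r of only -0.34 to 0.02 with that mean, so its removal could change the pairs among them little. Nr3c2 moved with Klf9 (r = 0.66, rho = 0.62, adjusted permutation p = 0.0172 and 0.0230, r = 0.63 without the 2 farthest arrays). Both also moved with the mean of the 5 measured CA1 pyramidal markers, at r = 0.69 and rho = 0.66 for Nr3c2 (adjusted permutation p = 0.00260 and 0.0105) and r = 0.66 and rho = 0.67 for Klf9 (adjusted permutation p = 0.0104 and 0.0199). Sgk1, Klf15, Fkbp5 and Tsc22d3 had r of 0.31, 0.28, 0.44 and 0.46 with the pyramidal mean, none passing. The target pairs with the pyramidal mean removed were not tested. Hsd11b1 passed with no other member, its r lying between -0.31 and 0.11.

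RNA integrity was gauged from control transcripts as the signal of their 3 prime minus that of their 5 prime probe sets, which was between 1.21 and 1.35 log2 units over the arrays. Tsc22d3 had r = -0.56 and rho = -0.55 with it and Sgk1 r = -0.46 and rho = -0.45, neither passing over the 104 relations (adjusted permutation p = 0.0621 and 0.0601, and 0.205 and 0.226). The sign was opposite for Nr3c1, at r = 0.50 and rho = 0.49 (adjusted permutation p = 0.155 and 0.174). It was also opposite for Hsd11b1, at r = 0.38 and rho = 0.45 (adjusted permutation p = 0.355 and 0.229). No member passed with this 3 prime minus 5 prime difference. With that difference removed, the target pairs held r from 0.48 to 0.76, and 8 of 10 passed.

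Other glucocorticoid targets were taken from a list of 36 genes, of which 29 were measured. In aged minus young, 3 of the 29 rose, none fell and 26 did not pass, against 3.09% of all genes called higher and 0.628% lower. Mertk, a receptor tyrosine kinase for engulfment, rose by 0.31 ± 0.07 (limma, Benjamini-Hochberg adjusted p = 0.0159). Gpd1, the glycerol-3-phosphate dehydrogenase of the cytosol, rose by 0.47 ± 0.13 (adjusted p = 0.0379), and Mt2A, a metal-binding metallothionein, by 0.48 ± 0.13 (adjusted p = 0.0405, both limma with Benjamini-Hochberg). Pdk4, a kinase that restrains pyruvate dehydrogenase, was at 0.40 ± 0.12 and did not pass (limma, Benjamini-Hochberg adjusted p = 0.0702). The median log2 difference of the list was 0.13, against 0.011 over all genes, and 26 of the 29 differences were positive, as were 56.1% of those of all genes. In aged impaired minus young, Mertk alone passed (limma, Benjamini-Hochberg adjusted p = 0.0484), against 3.09% of all genes called higher. In aged unimpaired minus young none passed, against 0.617%, and the list medians in these comparisons were 0.11 and 0.20. These calls lay near the threshold. Mertk passed in aged minus young without any 1 of the 23 arrays, with an adjusted p of at most 0.0359, while in aged impaired minus young it passed in 7 of the 23 leave-outs. Gpd1 was lost without any 1 of 10 arrays (aged impaired replicates 3, 5 and 6, aged unimpaired replicate 4, young replicates 1, 2, 3, 4, 6 and 8) and Mt2A without any 1 of 13 (aged impaired replicates 2, 5, 6, 7 and 8, aged unimpaired replicates 1, 4 and 7, young replicates 2, 3, 6, 8 and 9), with adjusted p up to 0.0867 and 0.0948 by limma with Benjamini-Hochberg adjustment. Over the leave-outs the count of called genes ran from 1 to 4 of 29. It was 1 without aged impaired replicate 5 or 6 or young replicate 2, 3, 6 or 8, and 2 without young replicate 9. With the astrocyte marker mean as a covariate it was 0 of 29, with Mertk at 0.17 (limma, Benjamini-Hochberg adjusted p = 0.360) and with larger differences that did not pass for Gpd1, at 0.52, and Mt2A, at 0.62 (limma, Benjamini-Hochberg adjusted p = 0.112 and 0.0539). The count was also 1 with arrays centred on the median, with no filter, with every probe set and with the replicate block, and 5 at a threshold of 0.1.

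**Figure D5:**
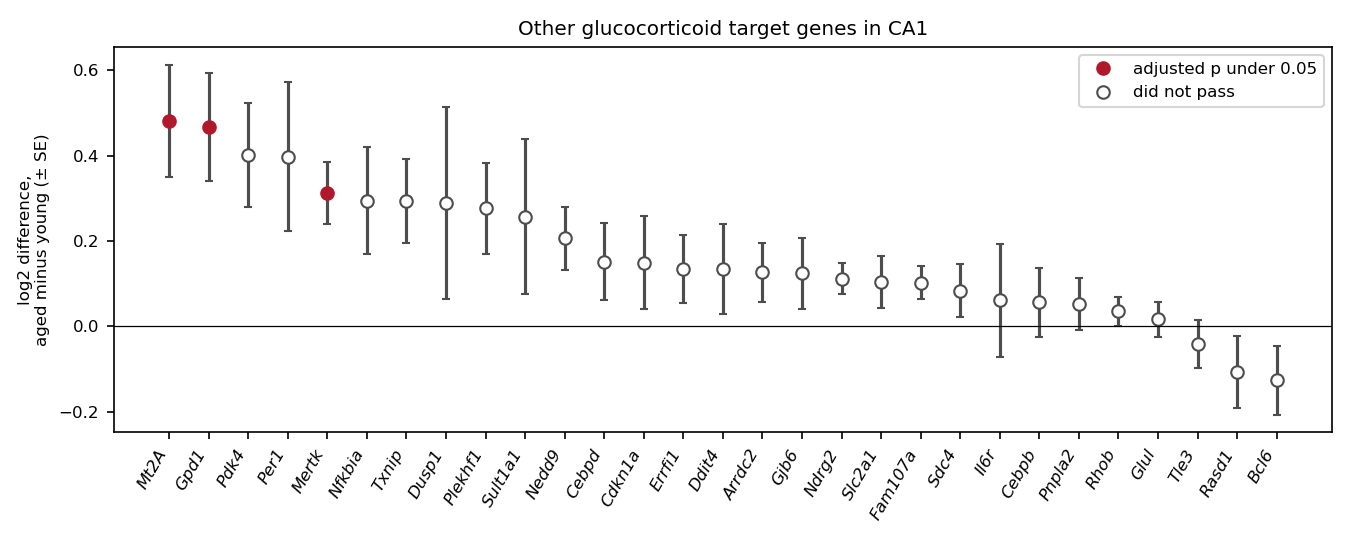
Log2 difference of aged minus young (± SE) for the 29 measured genes of the list of other glucocorticoid targets, from highest to lowest; filled points had an adjusted p under 0.05. Mt2A, Gpd1 and Mertk passed, and 26 of the 29 points lie above 0.

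The mean of these 29 genes also followed the member targets within groups. Its deviations had r = 0.82 with Fkbp5, 0.74 with Klf9, 0.73 with Klf15, 0.73 with Sgk1 and 0.70 with Tsc22d3, all passing over the 104 relations (adjusted permutation p from 0.00208 to 0.0104). The corresponding rho was 0.78, 0.83, 0.73, 0.62 and 0.81 in the order of those genes, and all passed. Without the 2 arrays farthest from the median of the list mean, r was 0.75, 0.76, 0.71, 0.64 and 0.77. With Nr3c1, Nr3c2 and Hsd11b1 the r was -0.17, 0.36 and -0.17, and none passed.

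Among relatives and substrates of the members, 10 of 14 listed genes of the Tsc22 and Sgk families and Sgk1 substrates were measured. Of these, 2 rose in aged minus young, against 3.09% of all genes called higher. Tsc22d4, a relative of Tsc22d3, rose by 0.23 ± 0.04 (limma, Benjamini-Hochberg adjusted p = 0.00227). Ndrg1, which Sgk1 phosphorylates, rose by 0.24 ± 0.06 (limma, Benjamini-Hochberg adjusted p = 0.0289). Both also passed in aged impaired minus young and not in aged unimpaired minus young. Tsc22d4 passed in aged minus young in all 23 leave-outs, and Ndrg1 in 20 of them, the exceptions being those of aged impaired replicate 6 and young replicates 2 and 7 (limma, Benjamini-Hochberg adjusted p of at most 0.0573). With the astrocyte covariate neither passed, at 0.19 for Tsc22d4 and 0.12 for Ndrg1 (limma, Benjamini-Hochberg adjusted p = 0.0567 and 0.442). Over the 17 alternatives other than leave-outs, that covariate among them, Tsc22d4 did not pass in 1 and Ndrg1 in 4. Without the 3 arrays of lowest median correlation Ndrg1 was at 0.18 (limma, Benjamini-Hochberg adjusted p = 0.0568). None of 10 measured Klf relatives and none of 11 measured Fkbp relatives passed in any comparison, where at most 3.8% of all genes were called.

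The machinery that holds and serves the receptors did not pass either, and of all genes 3.71% were called in aged minus young. None of 13 measured chaperones and co-chaperones was called in aged minus young, where the smallest p belonged to Ahsa1, the activator of the Hsp90 ATPase, at -0.09 ± 0.04. Stip1, which links Hsp70 to Hsp90, was at -0.07 ± 0.04, the chaperone Hsp90ab1 at -0.06 ± 0.03 and the co-chaperone Fkbp4 at -0.06 ± 0.05. None of 13 measured coregulators was called, with Ncoa6 at -0.12 ± 0.05, Hdac3 at 0.14 ± 0.07, Nrip1 at -0.10 ± 0.06 and Ppargc1a at 0.07 ± 0.05. Of 15 listed genes of steroid handling and hormone signalling 2 were measured, Crhbp, which binds the stress peptide Crh, at -0.21 ± 0.12, and the drug and steroid exporter Abcb1a at 0.04 ± 0.11, and neither passed.

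The genes most like each member in their deviations over the 23 arrays were picked as the 3 of highest r. For Sgk1 they were Gpd1 and Errfi1, both in the list of other glucocorticoid targets, and Gpatch4, at r of 0.79, 0.78 and 0.79. For Klf15 they were Boc, Tmem38b and Slc9a2 (0.73, 0.72 and 0.72). For Klf9 they were Sort1, Por and Hpca (0.83, 0.80 and 0.79), and for Fkbp5 Cdc40, Hpca and Gpr155 (0.84, 0.83 and 0.82), so that the neuronal calcium sensor Hpca stood in both. For Tsc22d3 they were Tmem260, Rrp7a and Eif4a1 (0.75, 0.75 and 0.71). For the receptors they were Lars1, Dock1 and Septin2 with Nr3c1 (0.89, 0.86 and 0.86) and Dclk2, Acsl5 and Zdhhc14 with Nr3c2 (0.87, 0.87 and 0.86). Hsd11b1 was nearest to Nlrx1, Siae and Commd9 (0.76, 0.62 and 0.61).

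Markers of the cells in the tissue were measured beside these results. The 5 measured of 9 listed CA1 pyramidal markers summed to linear signals of 12381 to 15212 in aged impaired, 14042 to 16066 in aged unimpaired and 11675 to 16756 in young arrays, and none passed in any comparison. The 6 measured of 11 CA2 and CA3 markers summed to 2327 to 4201, 2371 to 2678 and 2567 to 3918 in the same order, and none passed. In aged minus young, 2 of 8 measured astrocyte markers and 7 of 11 microglia markers rose, 1 of 11 oligodendrocyte markers fell, and 1 of 8 endothelial and 1 of 6 pericyte markers fell. Of all genes, 3.09% were called higher and 0.628% lower in that comparison. Of 4 measured meninges and fibroblast markers, 2 fell and 1 rose, and the marker that rose had the highest signal. The median log2 difference of the 4 markers was -0.65. In that comparison none of 4 measured dentate granule, 9 interneuron, 1 choroid plexus and 1 blood cell markers passed. The summed astrocyte signal was 68304 to 81654 in aged impaired, 69972 to 76459 in aged unimpaired and 63092 to 71934 in young arrays. The summed microglia signal was 9054 to 11340, 8779 to 10950 and 6983 to 8821 in the same order, and the summed meninges and fibroblast signal 3557 to 8497, 3710 to 4720 and 3296 to 3884. The mean log2 signal of the meninges and fibroblast markers went the other way, at 7.91, 7.66 and 8.19 in the same order. With the mean of the astrocyte markers as a covariate, added after the data were seen, the log2 difference of aged minus young was 0.95 for Sgk1 (limma, Benjamini-Hochberg adjusted p = 0.0285) and 0.39 for Klf15 (limma, Benjamini-Hochberg adjusted p = 0.0312). With the endothelial mean it was 0.61 for Sgk1 and 0.42 for Klf15, and with the RNA integrity measure 0.93 and 0.43, and all 4 passed. The part of microglia and of meninges in these differences was not tested.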

How the data were processed

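RNA from 23 rats was measured on Affymetrix Rat Genome 230 2.0 arrays. The deposited values are log2 signals from GCRMA, run by the authors, which corrects background, normalizes between arrays and summarizes probes, per the submitters' processing notes. Its version and settings are not given in the sources used here. Of the probe sets, 20832 had 1 gene symbol, 436 several and 9831 none in the platform annotation. Members were matched by symbol, and all other choices are given beside the results. Groups were taken from the labels, and no batch or date was given. Tests used limma 3.58.1 in R 4.3.3. Only aged minus young was checked on simulated data. There, planted log2 differences of 0.25 and 0.5 were called for 63.8% and 93.8% of the planted genes. On average 4.54% of calls were false. The simulated noise was independent between genes and alike across arrays, so the check did not cover shared variation or outlying arrays. Correlations used 100000 permutations, the smallest p they can give being 1e-05 unadjusted, in Python 3.11.15 with scipy 1.17.1, and figures matplotlib 3.10.9. The number of arrays limits the precision. Replicate numbers were checked for pairing: over 20 pairs of same-numbered arrays from different groups the correlation of deviations ran from -0.267 to 0.116, with 1 over 0.1, so the numbers were not taken to pair samples.

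The members, gene lists, markers and rule for naming genes were chosen with earlier results of these data known. The rule named all members and their probe sets, up to 4 measured genes of smallest p in aged minus young per pathway list (more if called), the 3 genes of highest r per member, and markers only as lists. The other glucocorticoid targets and the endothelial markers share Slc2a1. Promoters came from RefSeq (GRCr8), matched by symbol. Alternatives covered the filter, probe set choice, normalization, array weights, moderation, covariates, a replicate block, the threshold, the groups in the fit and leaving out each array. An astrocyte covariate and the removal of RNA integrity and endothelial markers from correlations were chosen after seeing the data.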

Additional observations from a re-analysis of the deposited data

Results flagged for a closer look

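Among 30 groups of values, 10 probe sets in 3 groups each, 3 held an array far from the rest, where chance flags about 1 in 20. For Nr3c1, young replicate 5 was the lowest of its group at 9.33, with the next young array at 9.61. For Tsc22d3, young replicate 9 was the highest of its group at 10.44, with the next at 10.21. For the Fkbp5 probe set 1380611_at, aged impaired replicate 7 was the lowest at 5.21, with the next at 6.19. That array was 1 of the 3 with the lowest median correlation with the others, as was young replicate 5.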

How the results depend on the processing

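Sgk1 and Klf15 passed in aged minus young under all 17 alternatives and all 23 leave-outs of 1 array. Their log2 differences ran from 0.61 to 0.98 for Sgk1 and from 0.39 to 0.47 for Klf15, with limma Benjamini-Hochberg adjusted p up to 0.0324 and 0.0312. In aged impaired minus young the members called were 1 rather than 2 with every probe set unfiltered, where more tests were adjusted (Sgk1 adjusted p = 0.0700 by limma with Benjamini-Hochberg), and 1 to 2 over the leave-outs, with 1 without aged impaired replicate 6. In aged unimpaired minus young, where 0 passed, 1 did with a log2 filter of 5, with trended robust moderation or with the RNA integrity covariate. There 2 did with array weights, at a threshold of 0.1 and without the 3 arrays of lowest median correlation. Over the leave-outs it was 0 to 2, with 2 without young replicate 5 or 9 and 1 without aged impaired replicate 4, 6 or 8 or aged unimpaired replicate 5. The cause of these changes was not tested.

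Counts of all genes moved more. In aged impaired minus young (345) they were 189 with the astrocyte covariate, 531 at the threshold of 0.1 and 226 to 438 over the leave-outs, with 226 without aged impaired replicate 6. In aged unimpaired minus young (69) they were 149 with array weights, 149 with the oligodendrocyte, 191 with the endothelial and 43 with the astrocyte covariate, 135 at 0.1, and 35 to 86 over the leave-outs, with 35 without aged unimpaired replicate 4. In aged minus young (337) they were 553 with the endothelial and 166 with the astrocyte covariate, and 524 at 0.1. Between the aged groups (0) there was 1 with only those groups in the fit. With arrays centred on the median, 63.9% of calls in aged minus young were higher, against 83.1% without centring, and 66.3% against 81.2% in aged impaired minus young, where quantile normalization gave 70.0%. In aged unimpaired minus young it was 62.5% against 81.2%.

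The replicate numbers share only a label, and no pairing was taken from them. With the replicate block the counts were 165, 31 and 159 for aged impaired, aged unimpaired and all aged minus young and 1 between the aged groups, and Sgk1 (0.90, adjusted p = 0.0262) and Klf15 (0.46, adjusted p = 0.0117) still passed in aged minus young by limma with Benjamini-Hochberg adjustment.

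Of 1280 member values under other settings, 27 changed sign, all of differences near 0 that passed nowhere. Nr3c1 in aged unimpaired minus young was -0.0166 centred, -0.00557 with quantile normalization, -0.00932 with array weights, -0.0637 with the RNA integrity and -0.116 with the astrocyte covariate, -0.000696 with the block, -0.0301 without the 3 arrays, and -0.0301 to 0.0633 over the leave-outs. In aged minus young it was 0.0399 with the endothelial covariate. Fkbp5 in aged impaired minus young was -0.00620 with that covariate and -0.0344 to 0.0854 over the leave-outs. Between the aged groups, Hsd11b1 was -0.00878 with array weights, -0.00876 without the 3 arrays and -0.00785 to 0.0486 over the leave-outs. There Sgk1 was -0.121 with the RNA integrity covariate, -0.00226 with the block and -0.112 to 0.118 over the leave-outs, Tsc22d3 -0.00430 with that covariate, and Nr3c2 0.0298 without the 3 arrays.

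Of the 28 member pairs, 12 passed with Pearson's r, 10 with Spearman's rho, 12 after median centring, 9 with RNA integrity and 10 with the endothelial mean removed. After centring, Nr3c1 with Fkbp5 passed at r = -0.61, against -0.31 before (adjusted permutation p = 0.0152), and Fkbp5 with Tsc22d3 was lost (adjusted permutation p = 0.0607). Nr3c1 with Sgk1 was at r = -0.68 centred and -0.42 with RNA integrity removed (adjusted permutation p = 0.00448 and 0.168). Each group has at most 9 arrays, which limits the precision.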

Other observations

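In the list of other glucocorticoid targets, 9 of 29 log2 differences of aged impaired minus aged unimpaired were positive, with a median of -0.04 against -0.005 over all genes, and none passed by limma with Benjamini-Hochberg adjustment. The lowest of these differences was that of Dusp1, a phosphatase of MAP kinases, at -0.56, and Dusp1 is named after its values were seen. Its log2 signal averaged 6.30 in aged impaired, 6.86 in aged unimpaired and 6.25 in young arrays.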
